A study of Mus musculus with 4 samples.

Results

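Open chromatin lying upstream of genes but beyond their promoters was examined in subcutaneous white fat of mice. The set holds the 642 autosomal merged regions (5.15% of all 12477) whose nearest listed gene start is more than 1000 bp away and for which that gene places the region upstream. The place was read from the deposited gene table, in which distances run from the summit of a peak to the gene start. Of the other autosomal regions, 7618 lay within 1000 bp of a start, 2036 inside a gene, 468 downstream of one, and 1471 were linked to no gene. The distance of the 642 upstream regions ranged from 1001 to 10318 bp, with a median of 5020.5 bp. The assay was ATAC-seq on nuclei of frozen fat: a transposase, Tn5, cuts DNA where chromatin is open and tags it for sequencing. The series has 4 libraries, from 2 female and 2 male samples, all labelled wild type and all without a stated treatment, strain or age. Whether the samples of a sex are separate animals, or pools, is not stated, so p-values measure the spread between these samples, which may be technical. Whole pieces of fat hold adipocytes, vessels, stroma and leukocytes, and a lower height in such bulk tissue cannot be told apart from fewer cells of the type in which the region is open.

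Promoters are the stretches around a transcription start where the polymerase assembles. Enhancers are stretches, often far away, where sequence-specific factors bind and act on a promoter through looping of the DNA. Open chromatin upstream of an annotated start can also be the promoter of an alternative first exon or of a neighbouring transcript, a tRNA gene or an insulator. ATAC-seq alone does not separate these classes. In fat, such distal elements are known binding places of PPARG, C/EBP factors and the glucocorticoid receptor, none of which was measured here.

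The libraries differed in the share of regions with a called peak and in height. Over all autosomal regions the share with a called peak was 79.9% and 62.9% for females 1 and 2, and 43.2% and 32.6% for males 1 and 2. Where 4 values follow each other in the text, they stand in that order. Male 2 stood apart, with wider intervals in the upstream regions as well (a median of 251 bp, the other libraries having 128, 138 and 153 bp). Heights had been scaled per library by the authors. Those of female 1 were whole numbers, whereas the lowest of males 1 and 2 over the upstream regions were 0.707 and 0.734. How the scales were set is not stated. Read totals were not among the values used, so the read depth of each library is unknown, and sex cannot be told apart from these library-wide differences. The median log2 difference over all 5899 regions with a height of their own was -0.63, male minus female.

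Among the 642 upstream regions, 64 (9.97%) overlapped a RefSeq start window, that is, the 250 bases before to 50 bases after a transcription start in the RefSeq table of the same build (GRCm38.p6, the patched release of mm10). In 33 of these the start belonged to the listed gene itself, and in 31 to other genes only. The start itself lay inside the region in 46 of the 64. A further 92 regions lay inside the RefSeq extent of their nearest listed gene without such a window, 187 inside another gene, and 299 (46.6%) outside all RefSeq genes. The window table does not cover every gene, and 13 regions lay on a chromosome it does not cover, so 64 is a lower count. The stretches below are the parts of 6 upstream regions that lie before a RefSeq start. The regions of Zbtb18, Dnajb5, Slc37a4, Cpeb4 and Msantd4 are shown for their mean summits. These were the highest of the upstream regions with a peak in all 4 libraries and a start window of the listed gene itself. The Birc2 region is shown because it alone of the 6 holds a cyclic AMP response element. Capitals mark the CCAAT box and the GC box (GGGCGG). They also mark the cyclic AMP response element, which reads TGACGTCA. The E-box in capitals reads CACGTG. Each was marked on either strand, and the reading is 5′ to 3′ on the strand of the gene.
Zbtb18, chr1:177442101-177442249, plus strand: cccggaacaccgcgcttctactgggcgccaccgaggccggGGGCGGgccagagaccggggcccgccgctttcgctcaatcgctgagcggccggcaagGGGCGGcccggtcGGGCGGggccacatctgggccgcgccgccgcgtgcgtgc
Dnajb5, chr4:42949617-42949866, plus strand: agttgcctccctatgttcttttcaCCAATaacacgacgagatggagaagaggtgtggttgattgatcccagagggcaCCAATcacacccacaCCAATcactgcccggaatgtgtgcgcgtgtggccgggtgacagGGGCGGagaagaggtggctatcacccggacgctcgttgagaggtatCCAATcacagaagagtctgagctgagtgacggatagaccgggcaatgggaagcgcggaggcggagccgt
Slc37a4, chr9:44396849-44397098, plus strand: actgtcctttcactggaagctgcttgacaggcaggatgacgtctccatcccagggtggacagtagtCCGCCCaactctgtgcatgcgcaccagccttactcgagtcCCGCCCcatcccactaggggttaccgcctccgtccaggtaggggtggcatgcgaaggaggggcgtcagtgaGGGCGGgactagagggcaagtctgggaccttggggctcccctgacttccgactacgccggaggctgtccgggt
Cpeb4, chr11:31870690-31870939, plus strand: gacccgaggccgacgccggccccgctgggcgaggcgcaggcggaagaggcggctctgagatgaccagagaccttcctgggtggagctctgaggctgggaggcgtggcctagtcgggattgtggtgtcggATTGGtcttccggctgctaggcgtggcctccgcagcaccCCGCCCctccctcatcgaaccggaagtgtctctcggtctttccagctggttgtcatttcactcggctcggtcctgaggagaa
Msantd4, chr9:4376302-4376551, plus strand: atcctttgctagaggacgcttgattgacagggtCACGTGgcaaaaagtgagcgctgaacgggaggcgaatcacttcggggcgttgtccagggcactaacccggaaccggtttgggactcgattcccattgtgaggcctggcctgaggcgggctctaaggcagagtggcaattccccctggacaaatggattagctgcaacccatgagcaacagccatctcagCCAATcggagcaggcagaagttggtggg
Birc2, chr9:7837058-7837307, minus strand: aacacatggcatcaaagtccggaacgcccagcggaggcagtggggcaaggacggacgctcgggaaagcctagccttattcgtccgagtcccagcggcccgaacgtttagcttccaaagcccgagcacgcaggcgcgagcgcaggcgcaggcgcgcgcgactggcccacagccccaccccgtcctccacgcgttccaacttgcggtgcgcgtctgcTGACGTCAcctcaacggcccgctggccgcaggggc
The Dnajb5 stretch carried 4 CCAAT boxes and 1 GC box, and those of Zbtb18 and Slc37a4 carried 3 GC boxes each. Their GC content was 79.2% at Zbtb18, 57.2% at Dnajb5, 63.6% at Slc37a4, 66.0% at Cpeb4, 57.2% at Msantd4 and 68.4% at Birc2.

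Over the 76 start windows that overlap upstream regions, the median GC content was 58.2%, against 63.3% in the 7112 windows that overlap regions within 1000 bp of a listed start and 52.7% in all 32851 windows of the table. The GC box was present in 61.8% of these 76 windows, 74.0% of the windows at promoter regions and 35.7% of all windows. For the CCAAT box the shares were 44.7%, 42.9% and 37.4%, in the same order. The TATA box (TATAAA) was present in 6.58%, 4.75% and 13.6%, and the AP-1 site (TGANTCA) in 3.95%, 3.57% and 7.81%. The cyclic AMP response element was found in 1.32%, 3.99% and 1.79%, and the E-box in 7.89%, 11.1% and 7.15%. Each motif was sought on both strands of windows of 300 bases, and the letters of the motifs listed do not contain one another. In base composition and GC boxes the windows at upstream regions thus lay between those at promoter regions and all windows. A match describes letters in the window and not binding, and these shares were not tested.

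Peaks in the upstream regions were mostly seen in few libraries. Of the 642 regions, 352 (54.8%) had a peak in 1 library, 139 (21.7%) in 2, 87 (13.6%) in 3 and 64 (9.97%) in all 4, whereas 20.0% of all autosomal regions and 28.8% of those within 1000 bp of a start had a peak in every library. By library, 69.5%, 57.0%, 29.9% and 22.3% of them had a peak. For regions within 1000 bp of a start the shares were 86.2%, 70.1%, 56.1% and 42.8%. The upstream regions were narrower, with a median of 151.5 bp against 245 bp. Regions inside genes had peaks in 71.6%, 49.1%, 20.4% and 12.7% and downstream regions in 69.7%, 56.0%, 24.4% and 17.9%, so the shares of the upstream regions in the males lay above both and below those of promoter regions.

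**Figure D1:**
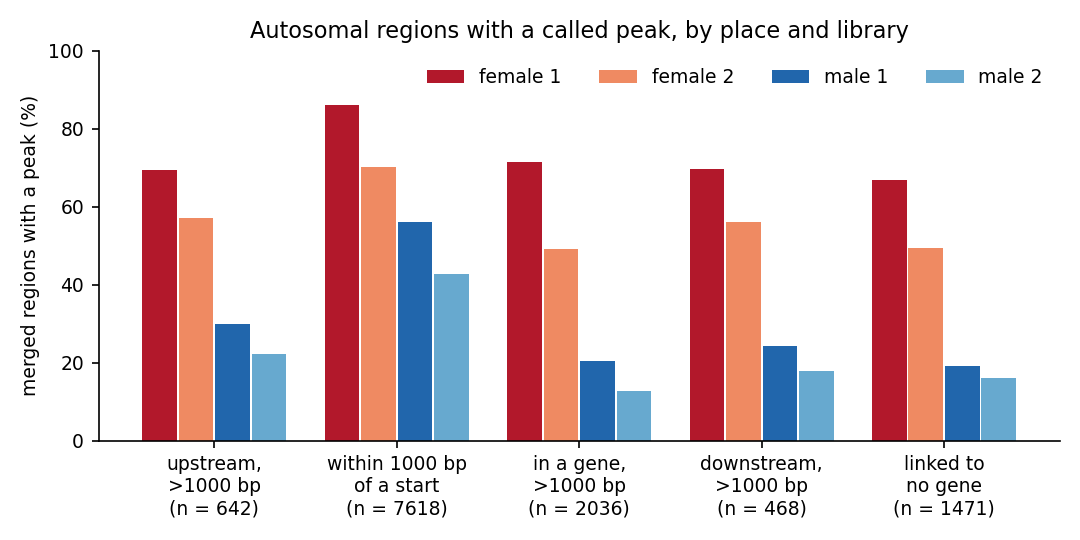
Share of autosomal merged regions with a called peak (y axis, percent, from 0) for 5 places of a region relative to its nearest listed gene (x axis), with 1 bar per library. Upstream regions fall from 69.5% in female 1 to 22.3% in male 2, and promoter regions from 86.2% to 42.8%.

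The overlap with a RefSeq start window went with the number of libraries. A start window was present at 29.7% of the upstream regions with a peak in 4 libraries (19 of 64) and at 4.26% of those with a peak in 1 library (15 of 352). It was present at 74.0% of regions within 1000 bp of a listed start and 6.32% of regions linked to no gene. Seen from the other side, 29.7% of the 64 upstream regions with a start window had a peak in every library, close to the 28.8% of promoter regions, against 7.79% of the 578 without one. Peaks of male 1 were called in 56.2% of the former and 27.0% of the latter, and peaks of male 2 in 35.9% and 20.8%. The median width was 221.5 bp with and 145 bp without a start window. No test was made of these shares, since regions are not replicates.

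**Figure D2:**
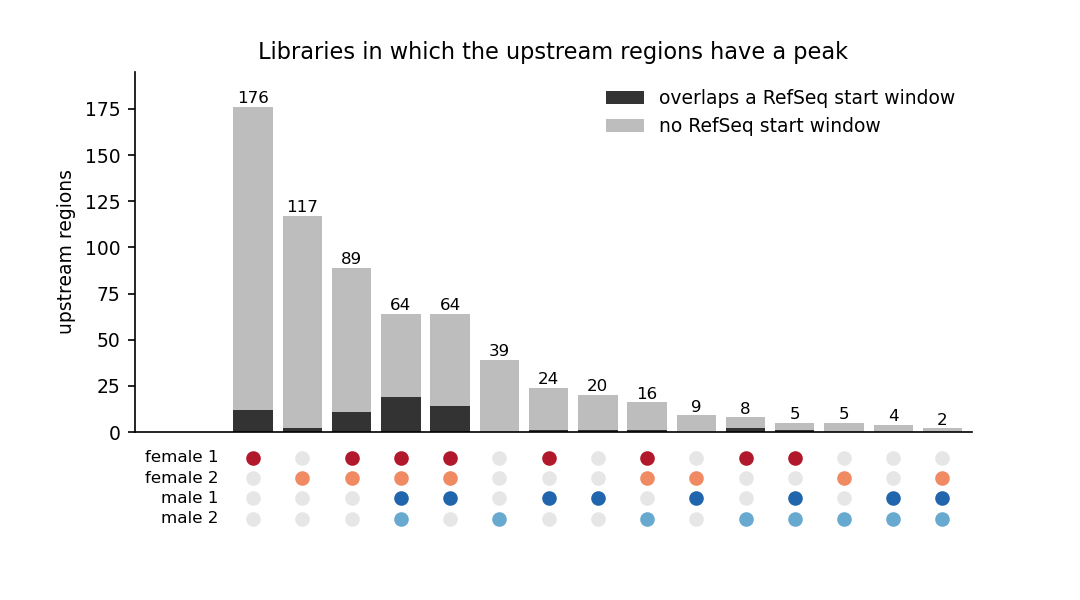
Number of upstream regions (y axis) for each combination of libraries with a called peak (filled dots under the axis), with regions that overlap a RefSeq start window in dark grey. The largest combination, 176 regions, is a peak in female 1 alone, and the 64 regions with a peak in all 4 libraries hold 19 with a start window.

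Among upstream regions with a height of their own and a nearest gene that is not a predicted one, the highest lay beside genes of varied function. Heights are the authors' scaled tag coverage at the peak, and a region has a height of its own in the gene table where it is the only region linked to a gene, as 294 of the 642 were. All 294 had a height above 0 in each library. The highest mean of the 294 was at the predicted gene LOC101055751 (105, 74.8, 55.8 and 32.3), which was named after its values were seen. Dnajb5, which encodes a heat shock protein of the DNAJ family, had heights of 110, 77.3, 48.1 and 24.2, 3318 bp upstream of the listed start (chr4:42949581-42949920). Both males lay below both females there. Zbtb18, a zinc finger repressor, had 89, 83.8, 61.5 and 27.9 at 2549 bp (chr1:177441805-177442249). Cpeb4, which binds polyadenylation elements of messenger RNAs, had 83, 60.8, 41.0 and 46.3 at 1427 bp (chr11:31870362-31870945). Msantd4 had 65, 55.9, 46.7 and 31.6 at 7087 bp, and Large, a glycosyltransferase that modifies dystroglycan, had 84, 62.5, 49.5 and 21.3 at 1108 bp (chr8:73353494-73353796). In each of these 5 regions female 1 was highest and both males were below both females. Over all regions with an own height, 71.4% had both males below both females. Dnajb5, Zbtb18, Cpeb4 and Msantd4 overlapped a RefSeq start window of the same gene (their stretches are printed above), and Large did not. The Zbtb18 region ends before the start itself. The remaining regions of the 10 highest with a gene name lay at Bcat2, Nrbp2, Prpf4b, Mtfp1 and Phf2, at 1094 to 7803 bp.

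Phf2 was the exception among them. Phf2 encodes a histone demethylase known from adipocyte differentiation, and its region, shared with Fam120a, had heights of 52, 41.9, 36.1 and 85.2, 7803 bp upstream (chr13:48878628-48878914). Male 2 was the highest library and male 1 the lowest, so the sexes overlapped. The log2 difference was 0.22 (SE 0.429, limma adjusted p = 0.669).

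Heights of upstream regions were below those of promoter regions in every library. The median own height of the 294 was 28.5 and 24.7 in the females and 17.0 and 10.3 in the males. The 4704 regions within 1000 bp of a start that had an own height gave 40, 31.2, 26.2 and 15.4. On the log2(height + 9) scale, the median of the upstream regions minus that of the promoter regions was -0.39, -0.26, -0.44 and -0.34. The male mean of that difference was -0.39 and the female mean -0.32, a difference of -0.07 that did not pass (exact permutation test over the 4 libraries, two-sided, p = 0.667, where 2 against 2 cannot give a p below 0.33).

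**Figure D3:**
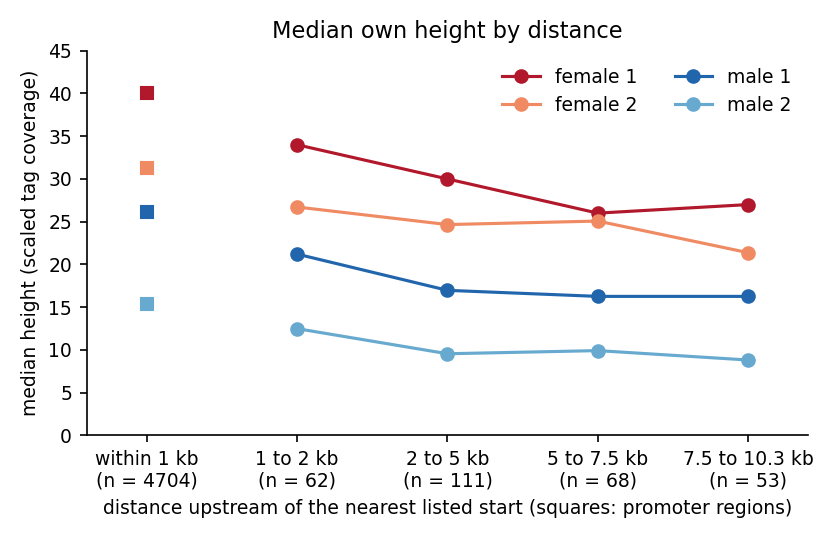
Median own height (y axis, scaled tag coverage, from 0) of upstream regions in 4 bands of distance to the nearest listed start (x axis, circles joined by lines), with the regions within 1000 bp of a start as squares, 1 colour per library. In female 1 the median goes from 34 in the nearest band to 27 in the farthest.

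Heights were greatest in the band nearest to the start in each of the 4 libraries. Between 1000 and 2000 bp upstream the median own heights were 34, 26.7, 21.2 and 12.5 (62 regions). Beyond 7500 bp they were 27, 21.4, 16.3 and 8.81 (53 regions). The 2 bands between, with 111 and 68 regions, gave 30 and 26 in female 1 and 9.55 and 9.91 in male 2. A RefSeq start window overlapped 12.2% of the regions in the nearest band, 14.3% from 2000 to 5000 bp, 7.27% up to 7500 bp and 5.73% beyond. Peaks in all 4 libraries made up 13.7%, 8.47%, 7.88% and 10.8% of the bands. At the limit of 1000 bp itself, 24 regions lay up to 100 bp outside and 20 upstream regions up to 100 bp inside the promoter distance. Of these, 7 and 6 had a peak in every library. Regions close to the limit lay at Tsc22d1 (1005 bp) and Man2a1 (1009 bp). The farthest lay at Ankrd33 (10155 bp), Fosb, a subunit of the AP-1 factor (10211 bp), and Slc38a2, an amino acid transporter (10318 bp).

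Many of the nearest genes had no region at their own start. Of the 642 upstream regions, 451 had a nearest gene with no region within 1000 bp of its start, and 191 had one. In those 191 pairs the promoter region had a peak in more libraries than the upstream region in 106, in as many in 52, and in fewer in 33. Where female 1 had a peak at both, the upstream summit was the higher in 26 of 108 pairs, with medians of 35 upstream and 46.5 at the promoter. In female 2 it was the higher in 20 of 75 pairs, in male 1 in 7 of 27 and in male 2 in 7 of 16. Elovl5, an elongase of polyunsaturated fatty acids, belonged to the pairs with the higher upstream region. Its summits 6645 bp upstream (chr9:77910414-77910811) were 78, 70.7, 38.9 and 45.5, whereas the region at its start had a peak of 24 in female 1 and no peak in the others. Foxo3, a forkhead factor restrained by insulin signalling, had upstream summits of 61, 69.1, 44.5 and 19.8 at 1050 bp, and 65, 48.5 and 39.6 at its start, where male 2 had no peak. Jun showed the other order, with peaks at its start in all 4 libraries (55, 58.4, 44.5 and 35.2) and 1090 bp upstream in the females only (48 and 45.2).

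A peak that was not called was not an absence of signal. Among the 294 upstream regions with an own height, the median height in female 1 was 34 where it had a peak (211 regions) and 18 where it had none (83 regions). The corresponding medians were 30.4 and 16.4 for female 2, 26.2 and 14.1 for male 1, and 19.1 and 8.08 for male 2. The ranges overlapped in each library. Of the regions without a peak, 81.9%, 91.6%, 70.2% and 44.0% were at or above the lowest height with a peak in the same library. A count of libraries with a peak is thus a count of calls and not of libraries with signal.

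**Figure D4:**
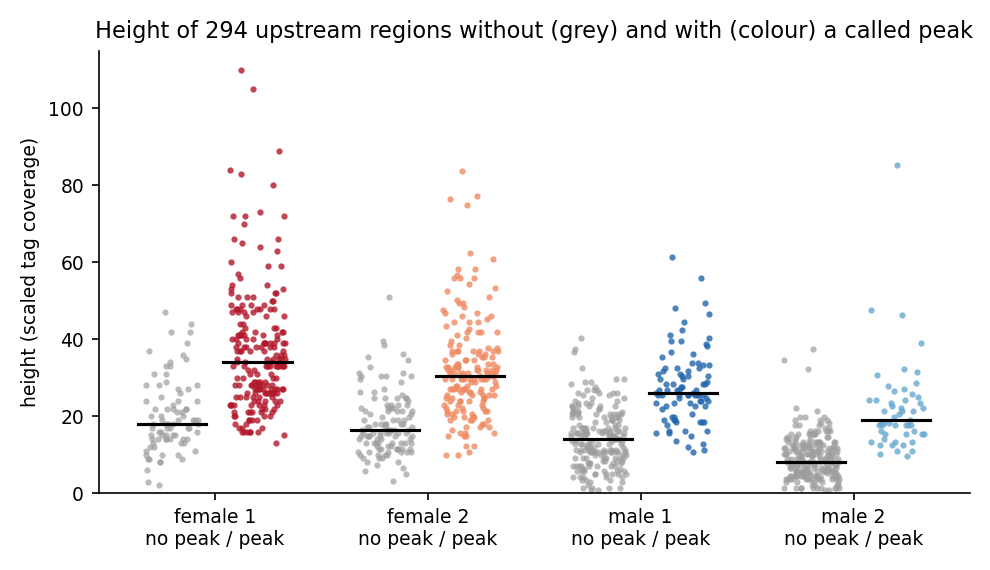
Height (y axis, scaled tag coverage, from 0) of the 294 upstream regions with an own height, in each library, for regions without a called peak (grey, left) and with one (colour, right). Each point is a region and each bar the median, which in female 1 is 18 without and 34 with a peak.

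The same held for peaks called in the samples of 1 sex alone. Of the 642 upstream regions, 89 (13.9%) had peaks in the 2 females and no male, near the 12.8% of all autosomal regions, and 4 (0.623%) in the 2 males and no female, against 0.458%. The 52 of the female set that had an own height gave median heights of 37, 31.2, 19.8 and 11, and in 48 both males were below both females. Over all regions with an own height 71.4% showed that order, and the 52 were chosen on peaks in females and none in males, which favours it, so nothing is read from that count. Kdm5b, a demethylase of histone H3, had 59 and 44.4 in females against 37.5 and 19.8 in males, although no male peak was called (chr1:134556935-134557166, 3122 bp upstream). Apol6, whose region lies inside the myoglobin gene Mb, had 70 and 50.1 against 24 and 17.6. Nes, which encodes the intermediate filament protein nestin, had 53 and 47.7 against 22.6 and 13.2. Other upstream regions of this set, without an own height, lay at Ptma, Trim8, Smarcd3 and Per1, with female summits of 41.9 to 65. The 4 regions of the male set lay at Tnrc18, Fam131a, Ccdc19 and Cyp2f2. Fam131a had heights of 24 and 17.3 in females and 19.1 and 12.5 in males, and Ccdc19 22 and 16.4 against 18.4 and 12.5. In both, the highest of the 4 heights was in a female, although the called peaks were male. Cyp2f2 had 17.0 and 10.7 against 12 and 17.6, and the sexes overlapped in all 3.

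In the comparison of the sexes, 9 upstream regions were lower in males and none was higher. All 9 entered the set of regions through peaks in females alone, and no male peak was called in them. That favours lower male heights, so no difference between the sexes is read from the calls. The limma test with Benjamini-Hochberg adjustment over all 5899 regions with an own height called 43 regions lower (0.729%) and 0 higher (0.00%), and 9 of the 294 upstream regions (3.06%). The 5899 include 156 regions on sex chromosomes, of which 0 were called, 48 of them being lower at an unadjusted p under 0.05. The 43 were thus among the 5743 autosomal regions. Of them, 18 lay within 1000 bp of a start, 0.383% of the 4704 such regions, which made up most of the 5899. Beside these and the 9 upstream, the rest lay among the 543 regions inside genes and the 202 downstream. A share above that over all regions was thus not particular to the upstream regions. At an unadjusted p under 0.05, 123 of the 294 (41.8%) were lower and 0 higher, against 28.1% lower and 0.0170% higher over all regions. Both males were below both females in 224 (76.2%) of the upstream regions, against 71.4% over all. Of all 642 upstream regions 59.5% had no male peak, against 46.2% of all autosomal regions. That favours lower male heights in these shares, and in the median below, as it does in the calls, so nothing is read from them. Males were above females without overlap in 1, at Fam167b, against 0.526%. The median log2 difference of the 294 was -0.70 (quartiles -0.92 and -0.49), against -0.63 over all regions and -0.62 over promoter regions. It was -0.58, -0.37, -1.02 and -0.83 for male 1 minus female 1, male 1 minus female 2, male 2 minus female 1 and male 2 minus female 2. After each library was centred on its median, limma called 0 regions in all (26 upstream regions at an unadjusted p under 0.05). With regions in the lowest 25% of mean height left out it called 0 as well (57 upstream regions at that level). The count of calls also moved when single libraries were left out, so it was not stable to the scaling, the filter or the libraries used. Why it moved was not tested.

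The called region nearest to Tnfrsf25, a death receptor of the tumour necrosis factor family, had heights of 23 and 32.1 in females and 1.41 and 1.47 in males. It lies inside Plekhg5 (chr4:152107637-152107719), 8631 bp upstream of Tnfrsf25, and differed by -1.80 on the log2 scale (SE 0.356, adjusted p = 0.00134 in limma). Both male heights were near the lowest of the upstream regions in males 1 and 2 (0.707 and 0.734), while the females were close to the median of the upstream regions. Heights this low stand for few tags, and limma on log2 heights does not model counts. The same limit holds for the male heights at Plcg2, Pitpnm3, Slc1a1 and Mir184 and for male 2 at Gm5292. The region 9427 bp upstream of Plcg2, a phospholipase of immune receptor signalling, had 27 and 18.1 against 1.41 and 3.67 (chr8:117488776-117488955, log2 -1.44, adjusted p = 0.0256). Pitpnm3, a membrane-associated phosphatidylinositol transfer protein, had 15 and 22.2 against 0.707 and 2.20 at 7151 bp (log2 -1.39, adjusted p = 0.0256). Slc1a1, a glutamate transporter, had 17.0 and 19.7 against 1.41 and 3.67 at 7134 bp (log2 -1.25, adjusted p = 0.0475). The males of these 4 regions did not overlap the females, and none of the 4 had a called peak in a male. The region 4854 bp upstream of Lpcat2, an enzyme of phospholipid remodelling, lies inside Mmp2 and had 51 and 46 against 17.0 and 6.61 (log2 -1.51, adjusted p = 0.0439). Its female heights were above, and its male 2 height below, the median of the upstream regions in the same library.

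The other 4 called regions lay nearest to predicted genes or a microRNA gene and are named here after their values were seen. They were C330024C12Rik (42 and 53.4 against 15.6 and 4.41), Gm5292 (25 and 16.4 against 4.24 and 0.734), 2310002J15Rik (28 and 21.4 against 7.78 and 1.47) and Mir184 (15 and 19.7 against 1.41 and 1.47). The Mir184 region lies 5544 bp upstream (chr9:89807810-89808043). None of the 9 called regions overlapped a RefSeq start window, 4 had peaks in both females, and 5 in a single female. Relative to the median of all regions the 9 differed by -1.16 to -0.62.

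Regions at Cib4, Lpin1, Itga5, Efna5 and Arntl2 were among the largest differences that did not pass. They were named by the size of the difference, and regions at other genes had adjusted p-values between theirs. Cib4 had heights of 28 and 29.6 in females and 5.66 and 6.61 in males (limma adjusted p = 0.0535). Itga5, the fibronectin receptor subunit, had 21 and 30.4 against 4.24 and 6.61 (adjusted p = 0.069), and Efna5, an ephrin, had 30 and 39.5 against 22.6 and 1.47 (adjusted p = 0.086). The male values of Efna5 differ from each other more than male 1 does from female 1. Arntl2, a paralogue of the clock factor BMAL1, had 64 and 51 against 26.9 and 11.7 at 9482 bp (adjusted p = 0.104). In the other direction 10 of the 294 upstream regions had a log2 difference above 0 and none passed. The largest among named genes were Guca2b, which encodes uroguanylin (3 and 8.22 against 17.7 and 2.20), and Phf2, described above. At Guca2b male 1 alone was above both females, and male 2 was the lowest library.

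**Figure D5:**
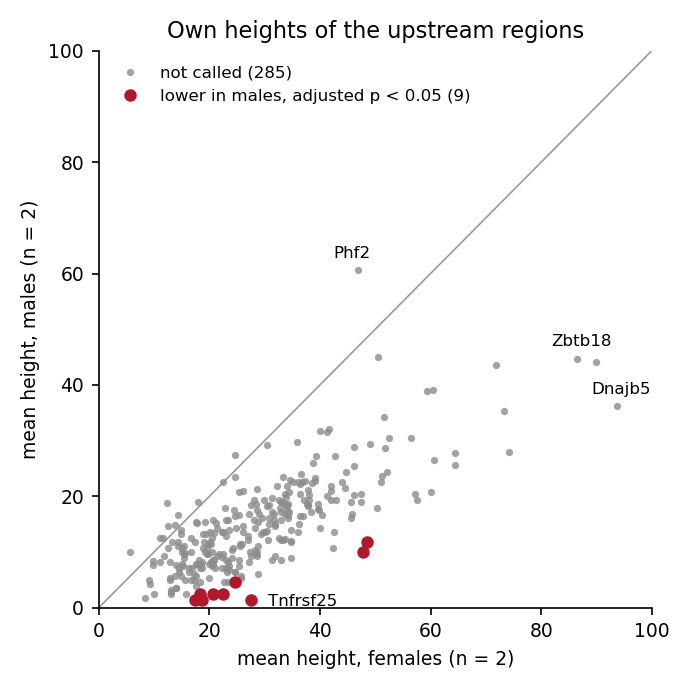
Mean own height of each of the 294 upstream regions in the 2 females (x axis) and the 2 males (y axis), in scaled tag coverage, with the line of equal height. Red points are the 9 regions called lower in males, and Phf2 is the highest point above the line.

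Upstream regions at genes of fat and clock function were described from 19 gene lists. Of 280 listed genes 173 were in the gene table and 29 had an upstream region, 32 regions in all, of which 4 had a peak in every library and 17 in 1 library. None of the 10 with an own height passed the limma test over all regions. The lists of thermogenic, progenitor, endothelial, macrophage, mammary epithelial and skeletal muscle genes had no upstream region. Those for adipocyte identity, lipolysis, mural cells, lymphocytes and Schwann cells had 1 each, at Retn, Adora1, Cspg4, Gata3 and Mbp. These markers bear on the genes linked to upstream regions only and do not test the tissue label. Of the adipocyte identity genes 15 of 20 were in the gene table. The clock list had 17 of 20 there, inflammation 12 of 15 and macrophage 4 of 11, so presence in it does not test the label either.

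Lipid synthesis had the most, with 7 of its 20 genes. Beside Elovl5, these were Lpin1, Thrsp, Acacb, Fasn, Scd1 and Scd2. Lpin1, a phosphatidate phosphatase of triglyceride synthesis, had heights of 35 and 34.5 in females and 12 and 5.87 in males, 1878 bp upstream (limma adjusted p = 0.071). Thrsp, a thyroid hormone-responsive lipogenic protein, had 39 and 30.4 against 15.6 and 8.08 at 1370 bp (adjusted p = 0.12). Scd2, a stearoyl-CoA desaturase, had a peak in both females (35 and 26.3) and in no male at 9356 bp. Fasn, fatty acid synthase (34), and Acacb, acetyl-CoA carboxylase (30), had a peak in female 1 only, at 6301 and 8142 bp, and Scd1 in female 2 only (18.9, at 8707 bp). Retn, which encodes the adipocyte hormone resistin, had heights of 27 and 22.2 against 10.6 and 2.20 at 9722 bp, in a region shared with Stxbp2 (adjusted p = 0.086). Elovl5 alone of the 7 had a male peak upstream. A peak in females only was also the commoner case over all upstream regions (382 of 642, 59.5%). Over all autosomal regions the share was 46.2% (5651 of 12235).

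Of the clock list 4 genes had 5 upstream regions. Per1, a repressor of the clock that is also induced by glucocorticoids, had 2. The region at 3692 bp (chr11:69094750-69095321) had summits of 66, 43.6, 43.1 and 43.3, and that at 1836 bp (chr11:69097086-69097220) had 60 and 41.9 in females and no male peak. The farther region was thus called in every library and the nearer in the females only, and both lie inside the RefSeq extent of Per1. Nr1d1, the nuclear receptor REV-ERBα, had 32 and 46 in females and 17.6 in male 2 at 8150 bp. Bhlhe41, a repressor of clock genes, had heights of 31 and 30.4 against 17.0 and 19.8 at 1412 bp (limma adjusted p = 0.304), and Bhlhe40 had a peak of 36 in female 1 at 1109 bp. Nr3c1, the glucocorticoid receptor, had 2 upstream regions inside its RefSeq extent, with peaks in female 2 and male 2 at 4339 bp (29.6 and 23.5) and in female 1 at 2643 bp (38).

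Immediate early genes, which are transcribed soon after a stimulus, had 5 upstream regions, at Egr1, Ier2, Jun, Junb and Fosb. Egr1 had summits of 64, 52.6 and 38.9 in the females and male 1 at 1303 bp. Ier2 had 77 in female 1 and 38.9 in male 1 at 1276 bp, Fosb 34 and 31.1 in the same libraries at 10211 bp, and Junb 27.2 in male 2 alone at 1476 bp. No library had a peak at all 5. Among developmental factors, Gata3 had heights of 42, 32.1, 22.6 and 10.3 at 1080 bp (limma adjusted p = 0.159). Nfib, a nuclear factor I protein, had a peak in the females and male 1 at 7876 bp (50, 51 and 24.7), and a second upstream region at 1188 bp with a peak in female 1 alone (32). Among inflammation genes, Irf1 had summits of 39, 38.6 and 33.9 in the same 3 libraries at 5886 bp.

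Some upstream regions covered genes of another kind. In all, 10 of 642 (1.56%) overlapped a RefSeq tRNA gene. Within 1000 bp of a listed start 10 of 7618 regions (0.131%) did, and 31 of 12235 (0.253%) in all. The shares were 0.855% of downstream regions (4 of 468), 0.408% of regions linked to no gene (6 of 1471) and 0.0491% of regions inside genes (1 of 2036). These shares were compared without a test. Transfer RNA genes are transcribed by RNA polymerase III from promoters inside the gene. Of the 10, those at 2310047D07Rik (summits 78, 55.9, 38.9 and 33.8), Ang (28, 21.4, 19.8 and 27.2) and Zfp692 (49, 25.5, 22.6 and 22.8) had a peak in every library. The Ang region, 1477 bp upstream of the ribonuclease angiogenin, covers the gene n-TYgta10 (chr14:51089384-51089622). Plxdc1 had the most upstream regions of any gene, 4 within 1362 to 2482 bp, each with a peak in a single library, and the 2 called in male 2 (13.2 and 21.3) overlap tRNA genes. These regions were singled out after their values were seen.

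MicroRNA genes were nearest to 25 upstream regions, of 20 different genes, 17 of which matched the RefSeq microRNA table. Mirlet7a-1, of the let-7 family, had 3, at 7488, 7680 and 8256 bp. The farthest (chr13:48546437-48546833) had summits of 101, 92.1, 65.7 and 23.5, the one at 7680 bp 65, 34.5 and 36.1 in the females and male 1, and the nearest 57 in female 1 alone. Peak calls thus went from 1 to 3 to 4 libraries over these neighbours. Both mature arms of Mirlet7a-1 and of Mir184, the latter beside a called region, are given with the seed (bases 2 to 8) in capitals, and were also chosen after the values were seen.
mmu-let-7a-5p, chr13:48538239-48538260, minus strand: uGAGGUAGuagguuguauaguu
mmu-let-7a-1-3p, chr13:48538188-48538209, minus strand: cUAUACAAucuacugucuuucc
mmu-miR-184-3p, chr9:89802263-89802284, minus strand: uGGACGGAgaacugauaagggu
mmu-miR-184-5p, chr9:89802302-89802323, minus strand: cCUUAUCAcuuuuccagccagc
No 2 of the 4 seeds are the same. The microRNAs themselves were not measured.

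Nearest does not mean regulated. Of the 642 upstream regions, 300 were linked in the table to 2 or more genes, up to 8, and 342 to a single gene, and the regions had 603 different nearest genes. In 132 the nearest gene was a predicted gene, a microRNA gene or a pseudogene. The predicted gene LOC101055764 had 3 upstream regions at 4506, 6234 and 9594 bp that all lie inside Tmem267 on chromosome 13 and had a peak in every library. Their summits were 61, 55.1, 31.1 and 60.9, then 95, 88.8, 80.6 and 65.4, then 43, 46.9, 36.1 and 49.2. In the first and the last of these male 2 was as high as the females, unlike the median of the upstream regions.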

How the data were processed

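ATAC-seq libraries were made with 10 PCR cycles, per the labels. The aligner BWA, the peak caller MACS2 2.1.0 and the build mm10 come from the submitters' processing notes, while read filters and any Tn5 shift are not given in these sources. In the deposited gene table the signal is a coverage height that the authors scaled per library and averaged over every region of a gene. Summit tracks hold the height of each peak. Own heights came from genes with a single region and equalled the highest summit, within 0.01, in 97.3% of cases with a peak. They were tested as log2(height + 9) with limma 3.58.1 (R 4.3.3, with trend, all 5899 regions, no replicate block). The fit was also run on data simulated from centred heights. Those lack the library-wide shift, so that run cannot check the calls reported here. A height above 0 in at least 2 libraries was required. A peak was assigned to a region by an overlap of at least 1 bp.

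Regions were named by their nearest gene by a rule: the 10 largest differences in each direction (calls first), the 10 highest, the 3 nearest and 3 farthest, up to 4 for each gene list, and up to 8 for each set of peaks in 1 sex. One region that the rule names is not reported here. Names of predicted genes, microRNAs and pseudogenes were passed over unless stated. Members and lists were chosen with earlier results of these data known. Sequences are from RefSeq tables (GRCm38.p6). Of overlapping windows on opposite strands, 1558 of 1558 were reverse complements. The number of columns of other samples left unused was 0. Positions count from 1. Python 3.11.15, pandas 2.3.3, numpy 2.4.6 and matplotlib 3.10.9 were used. Alternatives covered pseudocounts, filters, scaling, summits in place of own heights, a replicate block and each library left out.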

Additional observations from a re-analysis of the deposited data

How the results depend on the processing

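The count of upstream regions called lower in males (9, of 43 over all regions) was 9 of 32 with a pseudocount of 1, 6 of 22 with a pseudocount of 36, 9 of 52 with heights also solved from gene averages, and 4 of 18 without trend. It was 0 of 0 with median centring, with quantile normalization and with heights above the 25th percentile of the mean (at an unadjusted p under 0.05: 436, 469 and 1150 regions, of them 26, 33 and 57 upstream). With the highest summit of a library, and 0 where it had no peak, it was 90 of 1610, with 56 regions higher over all. With the replicate number as a block it was 160 of 2561, with 2 regions higher. Deviations of same-numbered libraries had a correlation of 0.015 over regions, the labels give no shared origin for a number, and the samples share only that number. Leaving out each library gave 0 to 151 upstream regions lower, 0 to 2956 over all, and 0 to 22 higher over all. Where 1 library of a sex is left, it is assumed to vary like the other sex. The median log2 difference of the upstream regions (-0.70) was -1.01 and -0.35 with pseudocounts of 1 and 36, -1.35 with summits, -0.086 with median centring, -0.11 with quantile normalization, and -0.95 to -0.46 with a library left out. The difference between sexes in upstream minus promoter height (-0.07) was -0.61 with summits and 0.00124 with a pseudocount of 36, where its sign turned. With summits the differences at Fam131a and Ccdc19 turned from -0.26 and -0.21 to 1.45 and 1.43. Upstream regions with female peaks alone (89) numbered 105 to 265 with a library left out. Those with male peaks alone (4) numbered 6 to 43 with a library left out, 0 with summits at or above the median of all summits, and 2 beyond 2000 bp. Why these values moved was not tested.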
